A study of Mus musculus with 6 samples.

Results

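The 10 genes described here are Fos, Fosb, Jun, Junb, Jund, Egr1, Atf3, Ier2, Ier3 and Dusp1, a list of immediate early genes. They were taken by symbol, matched to NCBI gene numbers, and make up 10 of the 23282 genes counted. RNA had been sequenced from mouse blood-forming cells to see what Mll4 does in primary and in transformed cells. Mll4, also named Kmt2d, encodes an enzyme that methylates histone H3 at enhancers. The data are 9 libraries from 6 samples, all of 129/Sv x C57BL/6 strain. Of the MLL-AF9 samples, grown for 14 days, one pair came from MLL4-/- bone marrow co-infected with MLL-AF9-neo and a retrovirus, selected in G418 and sorted for GFP. That retrovirus was FOXO3-IRES-GFP (2 libraries) or its empty vector (1 library), so the comparison of FOXO3 with empty vector has no Mll4-intact arm here. The other pair was a separate transformation of Mll4f/f marrow, infected afterwards with Cre-IRES-Tomato (labelled Mll4 deleted, 2 libraries, called the deletion-labelled pair below) or with the empty Tomato vector (intact, 2 libraries) and sorted 5 days later. Cre and its vector therefore go with the label Mll4 deleted. The LSK cells, which are sorted as lineage-negative cells with Sca1 and c-Kit on their surface, came from polyIC-treated MxCre+ littermates aged 2 months. They were Mll4f/f (labelled Mll4 deleted, 1 library) or WT (1 library). MLL-AF9, a fusion protein found in acute leukaemia, keeps marrow cells growing in culture, and FOXO3 is a transcription factor of the forkhead family.

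Immediate early genes are transcribed within minutes of a growth factor, cytokine or stress signal without need of new protein synthesis. MAP kinase cascades and calcium or cAMP signals act on factors already bound at their promoters, chiefly SRF with its Elk partners and CREB, and the transcripts are short-lived. Fos and Jun family proteins pair to form AP-1, which binds the next set of genes. In the marrow, AP-1 and Egr1 are known for their part in monocyte differentiation, and in sorted cells the same genes are known to respond to tissue dissociation and sorting.

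The promoter windows of 5 members are shown because these were the ones whose fitted level differed more than 10-fold between both transformations of cells labelled as lacking Mll4. Sequences and positions are from RefSeq on GRCm38.p6, whereas the counts rest on mm9, and each window runs from 250 bases before the annotated gene start to 50 bases after it, written 5′ to 3′ on the gene's strand. The windows are chr12:85473640-85473939 on the plus strand for Fos, chr7:19309996-19310295 on the minus strand for Fosb and chr4:95052173-95052472 on the minus strand for Jun. Those of Atf3 and Dusp1 are chr1:191183284-191183583 and chr17:26508423-26508722, both on the minus strand. Capitals mark matches on either strand to TGACG, the core of the CREB and ATF site, to the whole palindromic site TGACGTCA, or to TGACATCA.
Fos: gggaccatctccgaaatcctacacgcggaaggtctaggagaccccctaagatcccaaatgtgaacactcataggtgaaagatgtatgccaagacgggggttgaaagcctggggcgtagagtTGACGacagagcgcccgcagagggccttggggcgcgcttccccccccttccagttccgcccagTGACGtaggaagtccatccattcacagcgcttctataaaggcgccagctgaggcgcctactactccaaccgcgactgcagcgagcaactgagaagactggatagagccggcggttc
Fosb: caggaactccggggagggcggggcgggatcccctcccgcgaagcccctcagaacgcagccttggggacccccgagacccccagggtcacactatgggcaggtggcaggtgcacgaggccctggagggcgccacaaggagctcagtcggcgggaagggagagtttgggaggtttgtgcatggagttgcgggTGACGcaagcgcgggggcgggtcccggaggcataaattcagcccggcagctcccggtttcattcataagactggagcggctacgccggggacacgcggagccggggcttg
Jun: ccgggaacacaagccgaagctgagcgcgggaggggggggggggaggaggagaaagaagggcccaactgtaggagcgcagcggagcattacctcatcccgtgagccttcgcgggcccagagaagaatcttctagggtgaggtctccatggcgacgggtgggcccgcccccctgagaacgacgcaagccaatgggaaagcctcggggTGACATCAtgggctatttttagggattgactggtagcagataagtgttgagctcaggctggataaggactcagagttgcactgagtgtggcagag
Atf3: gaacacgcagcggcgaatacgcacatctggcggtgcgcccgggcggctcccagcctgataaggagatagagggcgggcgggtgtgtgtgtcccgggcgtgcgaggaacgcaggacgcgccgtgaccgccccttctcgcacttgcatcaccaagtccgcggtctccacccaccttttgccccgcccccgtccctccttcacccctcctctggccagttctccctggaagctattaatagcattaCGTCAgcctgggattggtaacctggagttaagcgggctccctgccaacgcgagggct
Dusp1: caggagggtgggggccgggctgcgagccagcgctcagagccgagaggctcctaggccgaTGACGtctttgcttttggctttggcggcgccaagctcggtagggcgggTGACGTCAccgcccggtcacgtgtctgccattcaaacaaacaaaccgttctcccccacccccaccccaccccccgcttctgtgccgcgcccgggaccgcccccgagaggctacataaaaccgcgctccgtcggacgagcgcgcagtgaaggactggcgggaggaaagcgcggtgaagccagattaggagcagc

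A window was at hand for 8 members; Egr1 and Ier2 are named only. TGACG lay in 5 of the 8 windows (Fos, Fosb, Junb, Atf3 and Dusp1), against 20.8% of all 32851 windows of this length. The Fos window held it 129 and 66 bases before the start, that of Fosb 60 bases before, and that of Atf3 on the opposite strand 7 bases before. The Dusp1 window held the whole TGACGTCA at 143 bases before the start (1.79% of all windows), where it overlaps matches to TGACG on both strands, and a further TGACG at 191 bases. The Jun window held TGACATCA at 45 bases before the start (3.62% of all windows). TGTTTAC, the forkhead core bound by FOXO proteins, was found in the window of Junb alone among the 8, 135 bases before the start (3.65% of all windows). TGANTCA, the AP-1 site, and the CArG box bound by SRF had no match in the 8 windows, against 7.81% and 1.63% of all windows, which says only that these letters are not in these stretches. The motifs TGACG and TGACATCA were chosen after the windows had been read, and all matches are descriptions of letters, not of binding.

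Library totals ran between 25895041 and 61950773 counts. Kmt2d was counted at 95.6 and 73.7 CPM (each count over the library total, scaled to 1e+06) in the deletion-labelled MLL-AF9 pair against 79.5 and 61.7 CPM in the intact pair, and at 13.9 CPM in the deletion-labelled LSK library against 1.88 CPM in the WT one. The counts cover the whole gene, and which exons the floxed allele loses is not given in the sources used here. They therefore do not check the deletion, the LSK value goes against its label, and every direction below rests on the labels. Foxo3 stood at 1292 and 1309 CPM with the FOXO3 virus against 27.3 CPM with the empty vector. Xist and the Y-linked Ddx3y showed 1 library of either sex in the deletion-labelled pair and in the intact pair, and Ddx3y was carried by all 3 Mll4-null libraries at 92.2 to 99.3 CPM. The FOXO3 libraries differed from each other far less than other pairs did (chi-square over its degrees of freedom 1.97, against 191 in the deletion-labelled pair and 146 in the intact pair) and were summed to 1 library for the tests. The labels do not state whether libraries of 1 sample were grown as separate cultures, so p-values measure the spread between these libraries. Of 11 markers of LSK cells, 10 were counted in the deletion-labelled LSK library and all 11 in the WT one. The 8 MLL-AF9 target genes, Hoxa9, Meis1 and Myb among them, summed to 1431 and 1438 CPM with FOXO3, 899 CPM with the empty vector and 230 to 296 CPM in the deletion-labelled pair. In the intact pair they summed to 71.4 and 90.1 CPM, below the 219 and 357 CPM of the LSK libraries, although all 8 were counted there.

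Across the MLL-AF9 libraries, immediate early transcripts were scarcest in the Mll4-null cells, intermediate in the cells labelled Mll4 deleted and most abundant in the intact cells. The 10 members summed to 192 and 184 CPM with FOXO3 and 310 CPM with the empty vector. They summed to 1105 and 1145 CPM in the deletion-labelled pair and to 1468.5 and 1861 CPM in the intact pair. The deletion-labelled LSK library held 1267 CPM and the WT one 5088 CPM. LSK libraries were amplified by PCR from about 50 picked cells and MLL-AF9 libraries were made from extracted RNA with a TruSeq kit, so cell type and protocol cannot be told apart and no test was made between them. In bulk RNA of this kind, fewer cells that express a gene and less RNA per cell cannot be told apart either. Levels are compared between libraries and not between genes, since the counts are not scaled to transcript length.

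**Figure D1:**
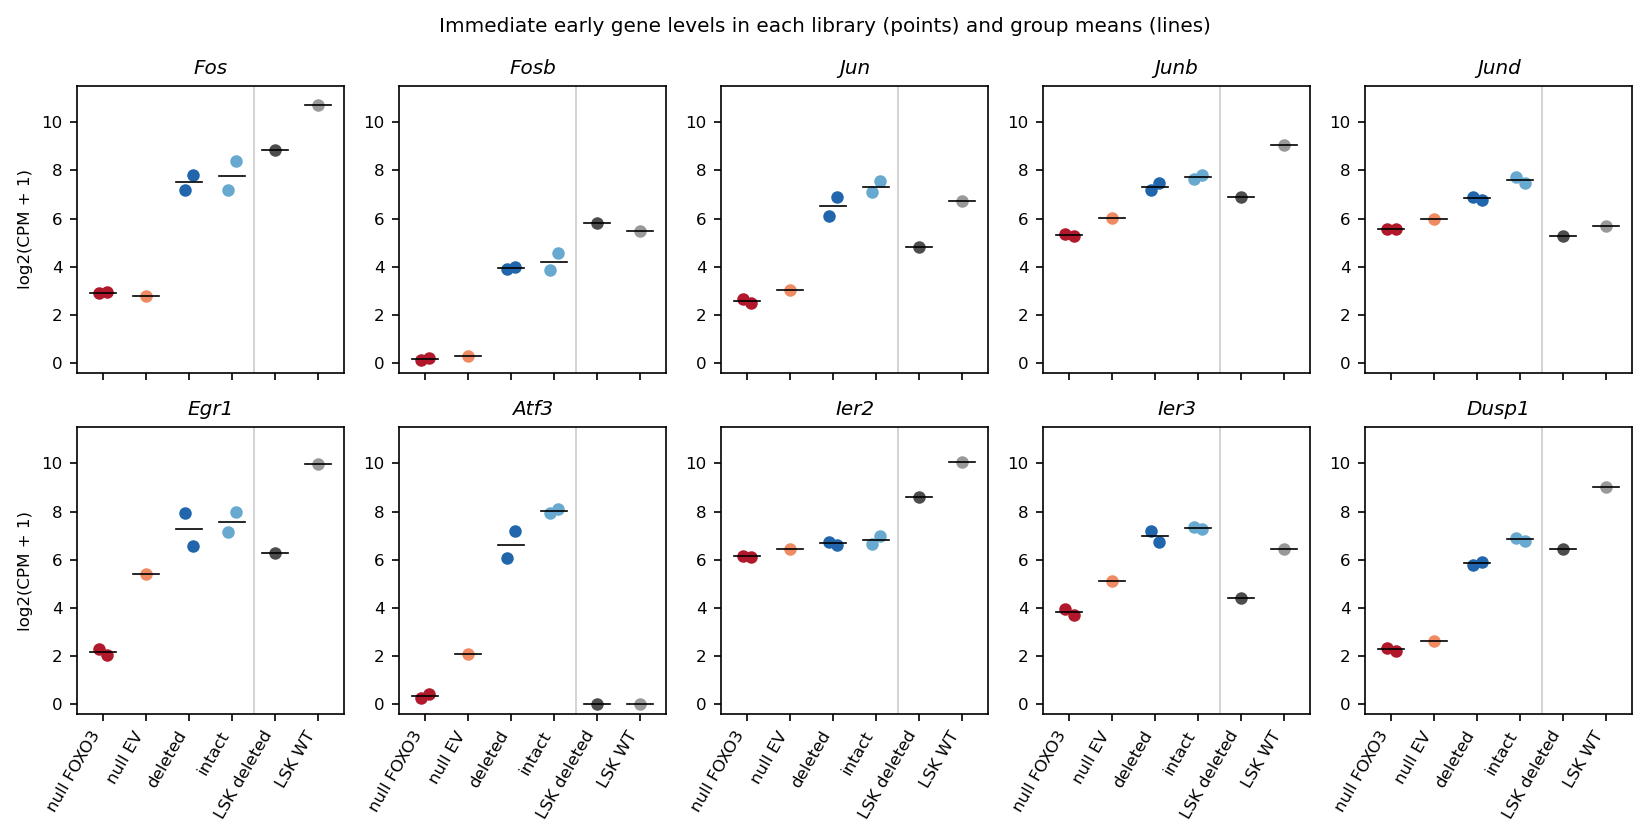
Level of each of the 10 immediate early genes as log2(CPM + 1) in every library (points) with the group mean (line), for the 4 MLL-AF9 groups left of the grey rule and the 2 LSK libraries right of it. Fos, Fosb, Jun, Atf3 and Dusp1 sit near the bottom in the 3 Mll4-null libraries, Ier2 changes little across the MLL-AF9 groups, and Atf3 has no count in LSK cells.

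The Fos genes encode proteins that pair with Jun proteins to form AP-1. Fos (NCBI gene 14281) was counted at 6.47 and 6.68 CPM with FOXO3, 5.98 CPM with the empty vector, 144 and 225 CPM in the deletion-labelled pair and 144 and 330 CPM in the intact pair. Fosb (14282) stood at 0.108 and 0.156 CPM with FOXO3, 0.228 CPM with the empty vector, 13.9 and 15.1 CPM in the deletion-labelled pair and 13.4 and 22.6 CPM in the intact pair. For both genes the ranges of the deletion-labelled pair and the intact pair overlapped, and all 3 Mll4-null libraries lay far below them.

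Jun is the main partner of Fos, and Junb and Jund are its relatives. Jun (16476) was at 5.29 and 4.70 CPM with FOXO3, 7.16 CPM with the empty vector, 68.6 and 118 CPM in the deletion-labelled pair and 136 and 188 CPM in the intact pair. Junb (16477), which dampens Jun activity in many cells and restrains myeloid expansion, was at 39.8 and 38.3 CPM with FOXO3, 64.3 CPM with the empty vector, 145 and 175 CPM in the deletion-labelled pair and 201 and 226 CPM in the intact pair. Jund (16478), the member whose transcript is least dependent on a stimulus, was at 46.3 and 46.2 CPM with FOXO3, 62.0 CPM with the empty vector, 117 and 110 CPM in the deletion-labelled pair and 208 and 178 CPM in the intact pair. In all 3 Jun genes the 4 MLL-AF9 groups did not overlap and stood in that same order. Of all genes tested, 15.7% had both deletion-labelled libraries below both intact ones. The share with all 4 groups apart was not counted, here or for Atf3, Ier3 and Dusp1 below, so these orders are descriptions.

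Egr1 (13653) encodes a zinc finger factor of myeloid differentiation. It was counted at 3.91 and 3.12 CPM with FOXO3, 41.1 CPM with the empty vector, 242 and 94.9 CPM in the deletion-labelled pair and 142 and 249 CPM in the intact pair. Atf3 (11910), a stress-induced factor of the CREB/ATF family, stood at 0.189 and 0.334 CPM with FOXO3, 3.20 CPM with the empty vector, 65.6 and 144 CPM in the deletion-labelled pair and 243 and 278 CPM in the intact pair. Egr1 overlapped between the deletion-labelled pair and the intact pair, whereas the 4 groups of Atf3 did not overlap. These were the members with the widest gap between FOXO3 and the empty vector.

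The last members are not DNA-binding subunits of AP-1. Ier2 (15936), a nuclear protein gene of the serum response, stood at 71.1 and 68.4 CPM with FOXO3, 86.8 CPM with the empty vector, 107 and 96.9 CPM in the deletion-labelled pair and 99.7 and 126 CPM in the intact pair. Ier3 (15937), a regulator of cell survival, stood at 14.5 and 11.9 CPM with FOXO3, 34.0 CPM with the empty vector, 146 and 107 CPM in the deletion-labelled pair and 162 and 153 CPM in the intact pair. Dusp1 (19252), the phosphatase that switches MAP kinases off again, stood at 4.10 and 3.68 CPM with FOXO3, 5.10 CPM with the empty vector, 54.8 and 59.3 CPM in the deletion-labelled pair and 119 and 110 CPM in the intact pair. Ier2 overlapped between the deletion-labelled pair and the intact pair and had the flattest profile of the 10, while the groups of Ier3 and Dusp1 did not overlap.

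Loss of Mll4 in MLL-AF9 cells was read from the deletion-labelled pair minus the intact pair. Dusp1 and Jund were lower in the cells labelled Mll4 deleted, and the other 8 members had lower estimates that did not pass the test. Dusp1 was 2.31-fold lower (log2 fold change −1.21 ± 0.14 SE, adjusted p = 0.0484), and Jund was 1.96-fold lower (−0.97 ± 0.15, adjusted p = 0.0493), in edgeR's quasi-likelihood test, Benjamini-Hochberg adjusted over 14990 genes. With a threshold of 0.05, 2 of 10 members were therefore lower and 0 higher, where 0.854% of all genes tested were lower and 1.23% higher. Among the 8 that did not pass, Atf3 had the largest estimate (−1.52 ± 0.40, adjusted p = 0.107), followed by Jun (−1.02 ± 0.34, adjusted p = 0.155), Junb (−0.63 ± 0.19, adjusted p = 0.140), Fos (−0.60 ± 0.48, adjusted p = 0.496) and Fosb (−0.54 ± 0.34, adjusted p = 0.389). Ier3 (−0.53 ± 0.19, adjusted p = 0.183), Egr1 (−0.44 ± 0.52, adjusted p = 0.649) and Ier2 (−0.37 ± 0.20, adjusted p = 0.334) stood closest to 0. The median of the members was −0.61 against 0.04 for all genes, and all 10 estimates stayed below 0 under the 4 scalings tried. At an unadjusted p under 0.05 there were 6 members, against 24.7% of all genes.

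Both libraries labelled Mll4 deleted lay below both intact libraries for 6 members, namely Jun, Junb, Jund, Atf3, Ier3 and Dusp1, where 15.7% of all genes tested did so. Since each pair held 1 library of either sex, the differences were also taken within sex, with 1 library on each side and no test. The log2 ratio of Dusp1 was −1.0 in the female and −1.0 in the male libraries, and that of Jund was −0.60 and −0.93. Atf3 stood at −2.08 in the female and −0.75 in the male libraries, and Jun at −1.45 and −0.21. Fos and Fosb were lower in the female libraries labelled Mll4 deleted (−1.20 and −0.70) and higher in the male ones (0.64 and 0.17). The other 8 members were lower in both sexes, some of them by little in 1 sex. In the female and male libraries Egr1 stood at −0.04 and −0.58, Ier3 at −0.07 and −0.60, Ier2 at −0.24 and −0.04 and Junb at −0.64 and −0.20. The share of all genes lower in both sexes was not counted.

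For Mll4, the smallest adjusted p over all 14990 genes was 0.0484 in edgeR's quasi-likelihood test. All 312 calls of this comparison therefore rest close to the threshold. The calls of Dusp1 and Jund are 2 of them. They ended when sex was added as a term (adjusted p = 0.141 and 0.151) and without either of the intact libraries (0.267 to 0.291), while the estimates stayed about as large, at −1.21 and −0.97 with sex as a term. Without library 1 or library 2 of the intact pair they were −1.30 and −1.26 for Dusp1 and −1.01 and −1.08 for Jund. Over all alternatives their adjusted p ran from 8.66e-09 to 0.291 and from 6.11e-07 to 0.291. The split of all calls also turned with the scaling, with 184 genes higher and 128 lower under TMM scaling, 9 and 25 under RLE (0 members), 99 and 113 under upper quartile (1 member) and 936 and 205 under total counts (1 member), where the median of all genes moved to 0.24.

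**Figure D2:**
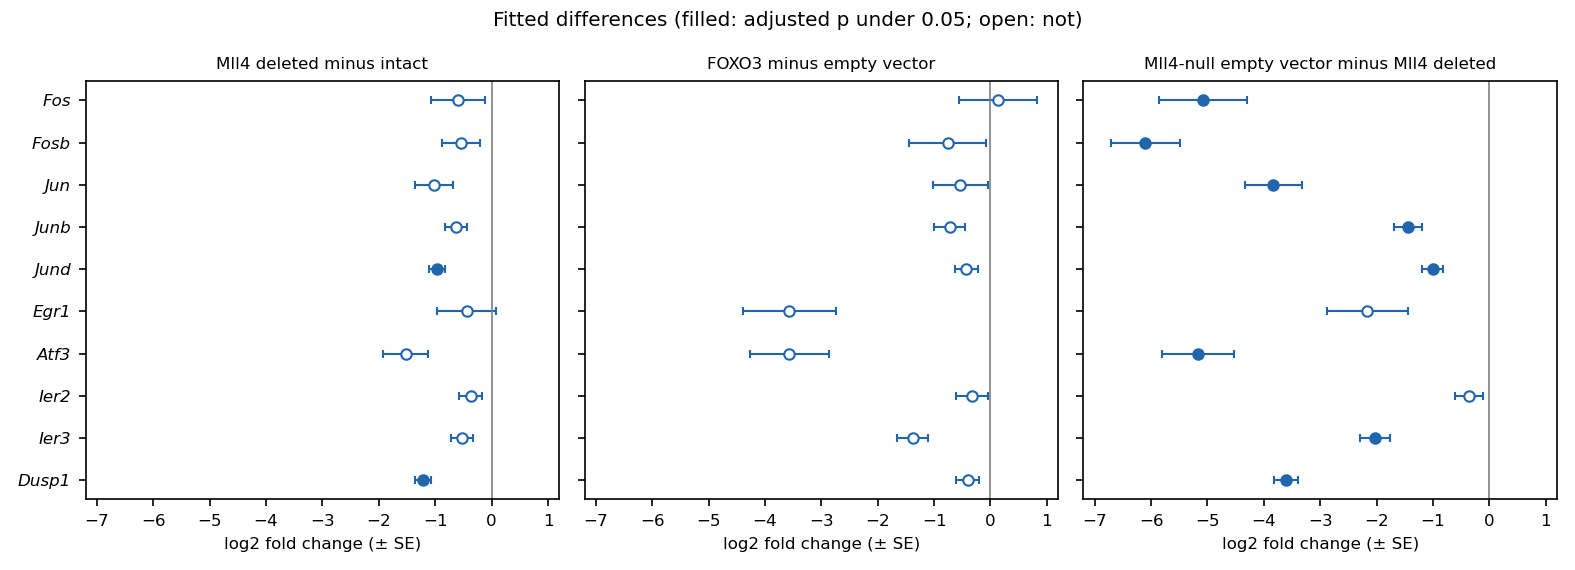
Fitted log2 fold changes (± SE) of the 10 members in the 3 tested comparisons, with filled points for adjusted p under 0.05 by edgeR's quasi-likelihood test. In the left panel only Dusp1 (−1.21) and Jund (−0.97) are filled, in the middle panel none, and in the right panel all but Egr1 and Ier2.

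Expression of FOXO3 in Mll4-null MLL-AF9 cells was read against the empty vector, 1 library on each side once the FOXO3 pair was summed. No member passed the test, although 9 of the 10 estimates were lower with FOXO3 and the largest were wide. Egr1 had a log2 fold change of −3.57 ± 0.82 (adjusted p = 0.143), Atf3 of −3.57 ± 0.70 (adjusted p = 0.102) and Ier3 of −1.38 ± 0.28 (adjusted p = 0.110), by edgeR's quasi-likelihood test. In this fit 0 of 10 members were lower and 0 higher, where 0.974% of all genes were lower and 0.213% higher, and at an unadjusted p under 0.05 there were 4 members (Atf3, Egr1, Ier3 and Junb), against 13.5% of all genes. Junb was at −0.73 ± 0.28 (adjusted p = 0.349) and Fosb at −0.76 ± 0.68 (adjusted p = 0.786). Jun (−0.53), Jund (−0.43), Dusp1 (−0.41) and Ier2 (−0.32) followed, and Fos alone had a positive estimate (0.13 ± 0.69, adjusted p = 0.985). The median of the members was −0.63, against 0 for all genes.

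With the FOXO3 libraries entered as 2 samples, and with DESeq2, 3 members were lower (Atf3, Egr1 and Ier3), where 4.93% and 5.07% of all genes were lower. Leaving out library 1 or library 2 labelled Mll4 deleted, which belong to neither side of this comparison but share its fit, also gave 3, where 5.86% and 4.81% of all genes were lower, while the log2 fold change of Egr1 ran from −3.74 to −3.42 over the alternatives. The adjusted p of Egr1 ran from 9.30e-06 to 0.259 over them, that of Atf3 from 1.82e-06 to 0.244 and that of Ier3 from 0.00104 to 0.283.

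The members were also compared between both preparations of MLL-AF9 cells labelled as lacking Mll4, the Mll4-null empty-vector library minus the deletion-labelled pair. Transformation, vector and selection differ along with the preparation and cannot be told apart from one another. Here 8 of 10 members were lower in the Mll4-null library and 0 higher, where 5.90% of all genes tested were lower and 1.07% higher. Fosb was 68.7-fold lower (log2 fold change −6.10 ± 0.62, adjusted p = 0.0172), Atf3 35.9-fold (−5.17 ± 0.65, adjusted p = 0.0230) and Fos 33.8-fold (−5.08 ± 0.77, adjusted p = 0.0311), by edgeR's quasi-likelihood test. Jun was 14.2-fold lower (−3.83 ± 0.51, adjusted p = 0.0253) and Dusp1 12.2-fold lower (−3.61 ± 0.21, adjusted p = 0.0148). Ier3 (−2.03 ± 0.26, adjusted p = 0.0247), Junb (−1.44 ± 0.25, adjusted p = 0.0398) and Jund (−1.0 ± 0.19, adjusted p = 0.0448) were lower by less. Egr1 (−2.16 ± 0.71, adjusted p = 0.132) and Ier2 (−0.36 ± 0.25, adjusted p = 0.407) did not pass. The median of the members was −2.89, against −0.05 for all genes.

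This comparison shares the deletion-labelled pair with the Mll4 comparison and the empty-vector library with the FOXO3 comparison, so the 3 sets of values are given side by side only. Ordered by what they encode, the Fos genes differed most between the preparations (−5.08 and −6.10 for Fos and Fosb). Their estimates were smaller, with wide errors, for Mll4 (−0.60 ± 0.48 and −0.54 ± 0.34) and for FOXO3 (0.13 ± 0.69 and −0.76 ± 0.68). The Jun genes ran from −3.83 for Jun to −1.0 for Jund between the preparations, from −1.02 to −0.63 for Mll4 and from −0.73 to −0.43 for FOXO3. Egr1 and Atf3 had the largest FOXO3 estimates, as given above. The empty-vector library and 1 of the deletion-labelled pair carried Ddx3y, and with sex as a term the estimates between the preparations were −5.93 for Fosb, −5.31 for Atf3, −4.96 for Fos, −3.87 for Jun and −3.63 for Dusp1, with Egr1 at −1.44. No member was called there with sex as a term, or without library 1 or library 2 of the intact pair, settings in which edgeR called 0 genes of any kind. In each of the 3 settings 9 members had an unadjusted p under 0.05, against 20.1%, 22.3% and 22.2% of all genes. DESeq2 called 9 members lower in this comparison, against 12.4% of all genes.

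In LSK cells 7 of the 9 members with counts were at least 2-fold lower in the deletion-labelled library than in the WT library, and 0 were at least 2-fold higher. Among all genes averaging 1 CPM or more, 34.9% were at least 2-fold lower and 28.1% at least 2-fold higher, so large ratios in either direction were common between these libraries. With 1 library per genotype there is no replicate check and no test, and the intervals below are 95% exact binomial ones that cover counting error only. Egr1 was furthest apart, with 77.6 CPM in the deletion-labelled library and 1011 CPM in the WT library, a log2 ratio of −3.70 (−3.77 to −3.64). Dusp1 had 85.2 CPM in the deletion-labelled library and 516 CPM in the WT library (log2 ratio −2.60, interval −2.66 to −2.53). Junb followed with 120 CPM in the deletion-labelled library against 528 CPM in the WT library (−2.14, interval −2.20 to −2.09). Ier3 had 20.4 CPM in the deletion-labelled library against 85.5 CPM in the WT library (−2.07, interval −2.21 to −1.93).

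Jun stood at 27.2 CPM in the deletion-labelled LSK library against 104 CPM in the WT library (log2 ratio −1.93). Fos stood at 461 CPM in the deletion-labelled library against 1682 CPM in the WT library (−1.87), and Ier2 at 382 CPM in the deletion-labelled library against 1067 CPM in the WT library (−1.48). Fosb and Jund were less than 2-fold apart, Fosb with 54.7 CPM in the deletion-labelled library against 43.8 CPM in the WT library (0.32) and Jund with 38.3 CPM in the deletion-labelled library against 50.1 CPM in the WT library (−0.39). Atf3 had no count in either library, which allows up to 0.116 CPM in the deletion-labelled library and up to 0.113 CPM in the WT library. Fos, Fosb and Ier2 stood higher in both LSK libraries than in any MLL-AF9 library, and Atf3 lower than in any. The median log2 ratio of the 9 members was −1.93, against −0.15 for all genes at that level.

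Marker genes of other cells also differed between the LSK libraries. The 8 erythroid markers summed to 14.4 CPM in the deletion-labelled library and 202 CPM in the WT library, with Klf1 at 0 CPM in the deletion-labelled library and 92.8 CPM in the WT library. Hba-a1 and Ank1 were at 0 in both. The 7 primary granule genes summed to 301 CPM in the deletion-labelled library and 587 CPM in the WT library. The 18 monocyte and macrophage markers summed to 61.0 CPM in the deletion-labelled library, with 11 of them at 0, and to 60.6 CPM in the WT library, with 12 at 0. Within these sums genes went opposite ways. Lyz2 was at 41.8 CPM in the deletion-labelled library and 13.7 CPM in the WT library. Ctss was at 10.8 CPM in the deletion-labelled library and 41.5 CPM in the WT library. The B cell gene Cd79b stood at 35.5 CPM in the deletion-labelled library against 0.752 CPM in the WT library. Ddx3y was at 14.4 CPM and Xist at 2.05 CPM in the deletion-labelled library, against 0.827 and 3.65 CPM in the WT library, and the part of all these in the values of the members was not tested.

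**Figure D3:**
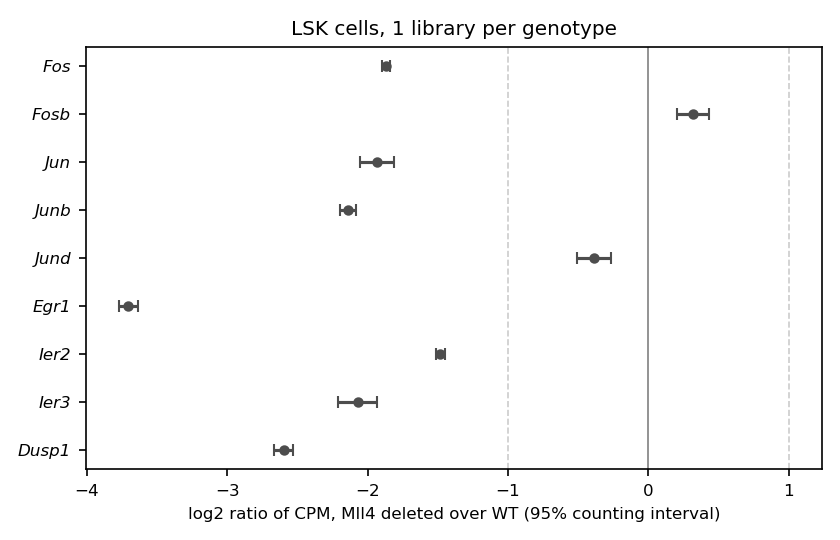
Log2 ratio of CPM, deletion-labelled LSK library over LSK WT library, for the 9 members with counts, with 95% counting intervals and dashed lines at 2-fold. Of the 9 points, 7 lie left of the 2-fold line, Egr1 furthest at −3.70, and only Fosb lies right of 0.

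Other genes of the same response were counted from lists of the pathway, with calls by edgeR unless DESeq2 is named. Of 33 further primary response genes tested, 6 were lower in the MLL-AF9 cells labelled Mll4 deleted than in the intact ones and 0 higher, with a median of −0.95. Of all genes 0.854% were lower and 1.23% higher, with a median of 0.04. At an unadjusted p under 0.05 by edgeR there were 17 of the 33, against 24.7% of all genes. For Mll4, DESeq2 called 15 of the 33 lower and 1 higher, and 13.9% of all genes in either direction. The chemokine gene Ccl4 fell to 29.5 CPM in cells labelled Mll4 deleted, against 185 CPM in intact cells (log2 fold change −2.87 ± 0.25, adjusted p = 0.0484). Sgk1, a serum-induced kinase, was at 67.5 CPM in cells labelled Mll4 deleted against 349 CPM in intact cells (−2.60 ± 0.30, adjusted p = 0.0484), and Phlda1 at 12.0 CPM in cells labelled Mll4 deleted against 35.7 CPM in intact cells (−1.79 ± 0.23, adjusted p = 0.0484). Klf4, Ier5 and Plk2 were the other 3. With FOXO3, 2 of the 33 were lower than with the empty vector and 0 higher, where 0.974% of all genes were lower and 0.213% higher. The monocyte factor gene Klf4 was at 0.0604 CPM with FOXO3 against 2.34 CPM with the empty vector (−5.21 ± 0.42, adjusted p = 0.0258). The chemokine gene Cxcl2 was at 0.199 CPM with FOXO3 against 3.29 CPM with the empty vector (−3.98 ± 0.52, adjusted p = 0.0456). Pim1 went the other way without passing, at 966 CPM with FOXO3 against 350 CPM with the empty vector (1.46 ± 0.24, adjusted p = 0.0716). DESeq2 called 6 of the 33 lower and 1 higher with FOXO3, where it called 5.07% of all genes lower. Of the 33 estimates 23 were below 0, with a median of −0.41. The summed level of the 33 was higher with FOXO3 (2016 and 2052 CPM) than with the empty vector (1708 CPM). In the Mll4-null empty-vector library 11 of the 33 were lower than in the deletion-labelled pair and 0 higher, Klf4, Cxcl2 and Klf6 with the smallest p. Of all genes 5.90% were lower and 1.07% higher there. DESeq2 called 18 of the 33 lower and 1 higher in that comparison, where it called 12.4% of all genes lower.

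Of 13 other genes of AP-1 and related leucine zipper factors, 0 were called between the deletion-labelled pair and the intact pair by edgeR or DESeq2, with 0 at an unadjusted p under 0.05. Fosl2, a Fos relative with slower kinetics, was lower with FOXO3, at 2.56 CPM against 18.4 CPM with the empty vector (−2.85 ± 0.31, adjusted p = 0.0360). Between the preparations 5 of the 13 were lower in the Mll4-null library and 0 higher, with Fosl2, Batf3, Maf and Creb5 among them. Of all genes 5.90% were lower there and 1.07% higher. Fosl2 was at 18.4 CPM in the empty-vector library against 81.1 CPM in the deletion-labelled pair (−2.27 ± 0.28, adjusted p = 0.0223).

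Few genes of the machinery upstream of the members passed the test, as few of all genes did. Of all genes, edgeR called 2.08% for Mll4, 1.19% for FOXO3 and 6.97% between the preparations. At an unadjusted p under 0.05 there were 24.7% of all genes for Mll4 and 13.5% for FOXO3. Between the preparations there were 4197 of 14990. The counts below are therefore not read as a trait of this machinery. Of 14 genes for SRF, CREB and their cofactors, 0 passed for Mll4 and 0 for FOXO3 by edgeR, with medians of 0.04 and 0.13 (1 each at an unadjusted p under 0.05 and 1 each by DESeq2). Creb1 was higher in the Mll4-null empty-vector library (116 CPM) than in the deletion-labelled pair (45.7 CPM; 1.22 ± 0.23, adjusted p = 0.0458). Of 29 genes of the MAP kinase cascades, the ribosomal S6 kinase gene Rps6ka2 alone passed for Mll4 by edgeR, at 6.38 CPM in cells labelled Mll4 deleted against 24.5 CPM in intact cells (−2.16 ± 0.31, adjusted p = 0.0484). For Mll4, 7 of the 29 had an unadjusted p under 0.05, and DESeq2 called 2 lower and 2 higher. Of the 29, 0 passed for FOXO3 by edgeR (4 at an unadjusted p under 0.05 and 1 by DESeq2) and 0 between the preparations (5 and 3). Of 8 NF-kB genes, Relb alone was lower between the preparations by edgeR (−2.63 ± 0.52, adjusted p = 0.0496), and 2 were by DESeq2. Of these 8, 0 passed for Mll4 (2 at an unadjusted p under 0.05 and 2 by DESeq2) and 0 for FOXO3 (0 and 0).

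Of 21 genes that damp the response, 0 passed for Mll4 by edgeR (8 at an unadjusted p under 0.05 and 5 by DESeq2) and 1 passed for FOXO3. This was Nab2, the corepressor of Egr1, at 0.875 CPM with FOXO3 against 9.58 CPM with the empty vector (−3.47 ± 0.34, adjusted p = 0.0297). Between the preparations 8 of the 21 were lower in the Mll4-null library. They were the phosphatase genes Dusp3 and Dusp4, Nab2, the NF-kB inhibitors Nfkbia and Tnfaip3, the cytokine signalling inhibitor Socs3 and the RNA-binding proteins Zfp36 and Zfp36l1, and 0 were higher. Socs3 stood at 6.55 CPM in the empty-vector library against 141 CPM in the deletion-labelled pair (−4.55 ± 0.30, adjusted p = 0.0148). Of 11 heat shock genes tested, 0 passed for Mll4 and 0 for FOXO3 by edgeR (2 each at an unadjusted p under 0.05, and 2 and 0 by DESeq2). Hsp90aa1 was higher in the Mll4-null library (1869 CPM) than in the deletion-labelled pair (718 CPM; 1.25 ± 0.22, adjusted p = 0.0383). These lists were chosen with earlier results of these data known, and their counts are descriptions.

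**Figure D4:**
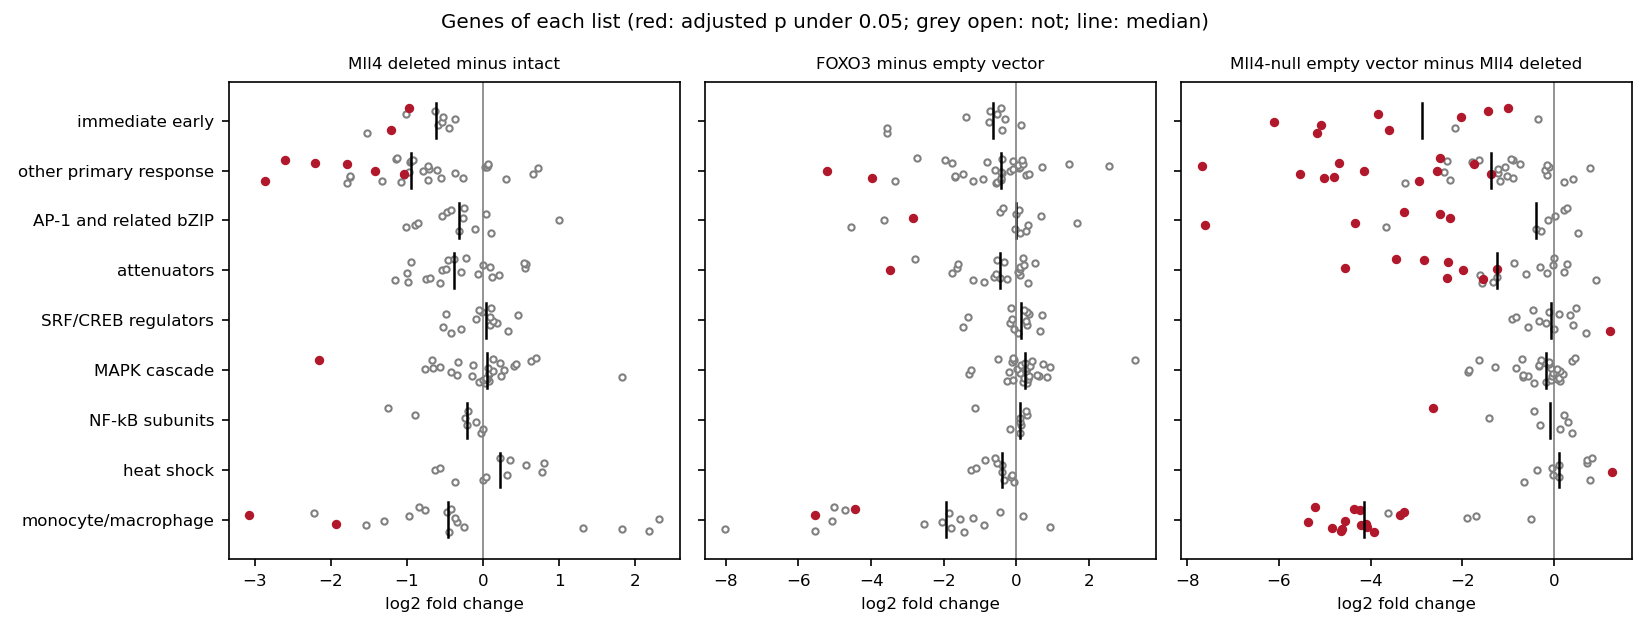
Log2 fold changes of the genes of each list in the 3 tested comparisons, red where adjusted p was under 0.05 and open grey elsewhere, with a line at the list's median. In the right panel the immediate early genes (median −2.89) and the monocyte and macrophage markers (median −4.15) lie left of 0 while the SRF/CREB and MAP kinase lists lie around it.

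The summed level of the monocyte and macrophage markers stood in the same order of MLL-AF9 groups as that of the members. The 18 markers summed to 490 and 494 CPM with FOXO3, 1015 CPM with the empty vector, 7564 and 14849 CPM in the deletion-labelled pair and 26664 and 38163 CPM in the intact pair. C1qa and C1qb were at 0 in the FOXO3 libraries, and every marker had counts in the other MLL-AF9 libraries. Much of this sum was Lyz2, the lysozyme gene, which averaged 5975 CPM in the deletion-labelled pair against 23868 CPM in the intact pair (−2.22 ± 0.53, adjusted p = 0.0904). For Mll4, 2 of the 18 were lower (Itgax and Clec7a), 0 higher and 16 did not pass by edgeR, with a median of −0.46 and 14 estimates below 0, and DESeq2 called 6 lower and 3 higher. For FOXO3, 2 were lower (Itgax and Mrc1) and 0 higher by edgeR, and 11 lower and 0 higher by DESeq2. Between the preparations 14 were lower and 0 higher by edgeR, and 17 and 0 by DESeq2. The 7 primary granule genes of earlier myeloid cells summed highest with FOXO3 and lowest in the intact pair, and overlapped between the empty vector and the deletion-labelled pair, with 20268 and 20340 CPM with FOXO3, 12678 CPM with the empty vector, 10326 and 13753 CPM in the deletion-labelled pair and 1816 and 2492 CPM in the intact pair. Of these 7, 4 were higher in the cells labelled Mll4 deleted than in intact cells (Ctsg, Elane, Ms4a3 and Prtn3). For FOXO3, 0 of the 7 passed by edgeR (2 at an unadjusted p under 0.05 and 1 by DESeq2), and 0 between the preparations (0 and 0), where the median was −0.05. Erythroid markers summed to 2.72 and 2.99 CPM with FOXO3 and to 82.2 CPM with the empty vector, and mast cell, basophil and eosinophil markers to 251 and 253 CPM with FOXO3 and to 2597 CPM with the empty vector. The part of any of these cell types in the members' values was not tested.

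**Figure D5:**
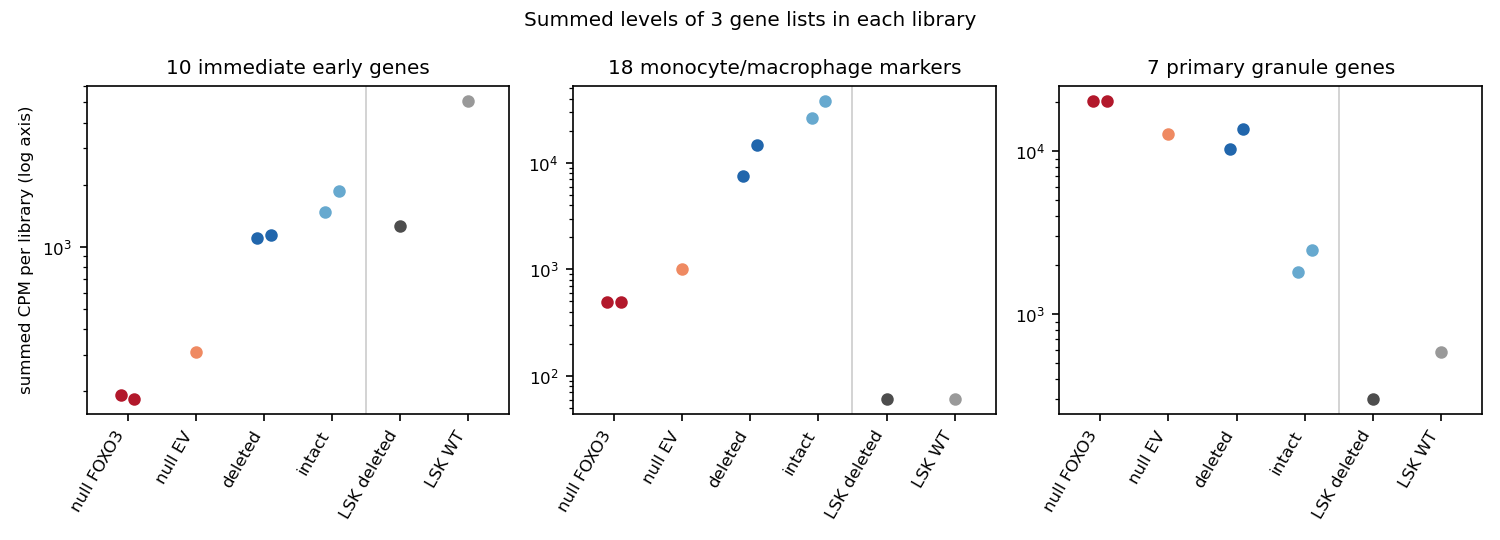
Summed CPM (log axis) in each library of the 10 immediate early genes, 18 monocyte and macrophage markers and 7 primary granule genes. In the MLL-AF9 libraries the first and second sums climb between the FOXO3 libraries (184 to 192 and 490 to 494 CPM) and the intact libraries (1468.5 to 1861 and 26664 to 38163 CPM) while the third is highest in the FOXO3 libraries (20268 and 20340 CPM) and lowest in the intact ones (1816 and 2492 CPM), and the LSK libraries hold many immediate early transcripts with few monocyte transcripts.

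The genes whose profile over the 7 MLL-AF9 libraries lay closest to the mean profile of the members were Serpinb6a, Ralgds, Dapk1, Cdkn1a and Parp14. Likeness was the root mean square difference of log2(CPM + 1) profiles, each centred on its own mean, among 9277 genes outside the list averaging 10 CPM or more. It was 0.11 for Serpinb6a, a serine protease inhibitor gene, 0.13 for Ralgds, 0.18 for Dapk1, 0.18 for Cdkn1a and 0.21 for Parp14, with a median of 1.93 over the genes compared. Serpinb6a averaged 12.3 CPM with FOXO3, 23.6 CPM with the empty vector, 159.5 CPM in the deletion-labelled pair and 205 CPM in the intact pair. Cdkn1a, the cell cycle inhibitor p21, averaged 50.7 CPM with FOXO3, 85.3 CPM with the empty vector, 526 CPM in the deletion-labelled pair and 666 CPM in the intact pair. The members themselves lay 0.35 (Fosb) to 1.56 (Atf3) from their own mean profile. The 5 genes were picked as the closest of 9277, so their smaller distances follow from that choice. Ier2 (1.46) and Jund (0.97) had flatter profiles than the mean one and Atf3 a steeper one.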

How the data were processed

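The authors deposited raw read counts per NCBI gene number, as whole numbers for 23282 genes in each library. The submitters' processing notes name Bowtie 0.12.8, TopHat2 2.0.11 and mm9. How reads were assigned to genes, and whether by strand, is not given in the sources used here. The RefSeq table of GRCm38.p6 served for names only and named 23185 of the 23282 genes, all 10 members included. In that table no gene overlaps a member. CPM is the count over the library total, scaled to 1e+06 (25895041 to 61950773 counts).

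The test was run in edgeR 4.0.16 under R 4.3.3 (TMM scaling, default expression filter, quasi-likelihood test, Benjamini-Hochberg adjustment over 14990 genes, threshold 0.05), in 1 fit of the 7 MLL-AF9 libraries by group. The 2 FOXO3 libraries were summed, because they differed far less than the other pairs and would have drawn down the shared spread. That leaves single FOXO3 and empty-vector libraries, which are assumed to vary like the other groups. Errors after ± are SE. For LSK cells the log2 ratio of CPM is given with a 95% Clopper-Pearson interval, and a gene without counts is given an upper limit of 3 counts. Since PCR copies are not separate molecules, both cover counting error only. Alternatives were 3 other scalings (RLE, upper quartile, total counts), a filter at a mean of 5 CPM or none, DESeq2 1.42.0, robust estimation, the FOXO3 pair as 2 libraries, the 4 libraries of the Mll4 comparison alone, the replicate number as a block, sex as a term and each library left out. The test was tried on simulated data. The members, gene lists, tests and alternatives were chosen with earlier results of these data known. Named genes were all 10 members, the 3 smallest p of each other list per comparison, those of short called lists, chosen after their values were seen, and the 5 genes with the profile most like the members. Some genes that this rule takes are not reported here. RefSeq windows on GRCm38.p6 gave the promoter sequences.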

Additional observations from a re-analysis of the deposited data

How the results depend on the processing

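Of 490 refits of single members, 145 of those for Mll4 kept direction and side of the threshold, 9 newly passed, 13 no longer passed and 3 turned; for FOXO3 146 kept both and 14 newly passed; between the preparations 132 kept both, 2 newly passed and 26 no longer passed. The turned ones were Fos, from −1.20 to 0.16 over the libraries left out (0.16 without intact replicate 2), and Egr1, from −1.27 to 0.05 (0.00 without Mll4 deleted replicate 2 and 0.05 without intact replicate 2), none of them called in any fit for Mll4. For Mll4, the 2 members called became 4 with the FOXO3 pair as 2 libraries, 0 with RLE scaling, 1 with upper quartile scaling, 1 with total count scaling, 5 with DESeq2, 0 with only the 4 libraries compared (0 of 14146 genes, 3498 at an unadjusted p under 0.05), 0 with sex as a term (0 genes, 2684 at an unadjusted p under 0.05) and 0 to 3 with a library left out, 0 without either intact library. For FOXO3, the 0 members became 3 with the FOXO3 pair as 2 libraries, 3 with DESeq2 and 0 to 3 with a library left out. Between the preparations the 8 members became 0 with sex as a term and 0 to 8 with a library left out, 0 without either intact library. The main fit has 2 residual degrees of freedom, and sex as a term or the loss of a library of the Mll4 pairs leaves 1; the cause of the differences was not tested. The counts over all genes moved alike: 312 for Mll4 against 2237 with 7 libraries and 2079 with DESeq2, and 178 for FOXO3 against 1069 and 1055.

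With the replicate number as a block, 4 members passed for Mll4 (Jun, Atf3, Jund and Dusp1; 1408 genes in all) and 2 for FOXO3 (Atf3 and Ier3; 762 genes). The numbers come from file names, and same-numbered deviations correlated at 0.18 over 14990 genes in the Mll4 pairs, 1 correlation for 2 pairs, so the libraries are taken to share a number only. In LSK cells 7 members were at least 2-fold apart under all 3 scalings. Depth limits most the values under 1 CPM, those of Atf3 in LSK cells, Fosb in the 3 Mll4-null libraries and Atf3 with FOXO3.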

Other observations

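Markers of further cell types were counted in the same fits, with calls by edgeR unless DESeq2 is named. Of all genes, edgeR called 2.08% for Mll4, 1.19% for FOXO3 and 6.97% between the preparations. Of 12 neutrophil genes tested, Mmp9 was lower and Camp higher in the MLL-AF9 cells labelled Mll4 deleted than in the intact ones, 0 passed for FOXO3 by edgeR (4 at an unadjusted p under 0.05 and 2 by DESeq2), and 3 were lower in the Mll4-null empty-vector library than in the pair labelled Mll4 deleted (Fpr1, Mmp8 and Mmp9). Of 8 platelet genes, Treml1 and Vwf were lower in the cells labelled Mll4 deleted than in intact cells. Both were lower again in the Mll4-null library than in the pair labelled Mll4 deleted. The list was mixed between the preparations, where DESeq2 called 4 lower and 2 higher. Gp1bb was at 3.10 CPM in the empty-vector library against 0.344 CPM in the pair labelled Mll4 deleted (3.02 ± 0.69, adjusted p = 0.0674 by edgeR). Erythroid genes stood apart in the empty-vector library: of 6 tested, 4 were higher there, Ank1, Car1 and Klf1 among them, than in the pair labelled Mll4 deleted, and Ank1 and Car1 were lower with FOXO3 than with the empty vector. Of 8 mast cell, basophil and eosinophil genes, Epx alone was lower with FOXO3 by edgeR, 4 were by DESeq2, and all 8 estimates were below 0 with a median of −4.01. Of 8 MLL-AF9 target genes, Hoxa9 and Myb were higher in cells labelled Mll4 deleted than in intact cells, and Hoxa7, Hoxa9 and Mef2c higher in the Mll4-null empty-vector library than in the pair labelled Mll4 deleted.

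In LSK cells the other primary response genes did not all go the way of most members. Myc had 627 CPM in the library labelled Mll4 deleted and 403 CPM in the WT library, whereas Btg2, an antiproliferative gene, had 13.1 CPM in the library labelled Mll4 deleted and 215 CPM in the WT library. The phosphatase gene Dusp2 had 43.0 CPM in the library labelled Mll4 deleted and 176 CPM in the WT library, and the NF-kB inhibitor Nfkbia 294 CPM in the library labelled Mll4 deleted and 124 CPM in the WT library. Among kinase genes Mapk14 had 228 CPM in the library labelled Mll4 deleted and 52.5 CPM in the WT library. Hspa8, the constitutive heat shock chaperone, had 3433 CPM in the library labelled Mll4 deleted and 5848 CPM in the WT library. These are single libraries with no test.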
